A study of Sus scrofa with 18 samples.

Results

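The genes described here are the 100 named genes of the fetal pig brain whose expression stood highest at gestation day (GD) 60 relative to both GD45 and GD90. They were chosen by their own read counts. For each gene the mean log2 CPM (read counts scaled to library size, CPM, after TMM scaling, with a prior count of 2) of the 6 libraries of each day was taken, and the score was the smaller of GD60 minus GD45 and GD60 minus GD90. The 100 highest scores were kept out of 10464 genes with a gene name and a mean of at least 5 CPM, among 16325 genes with enough reads to be tested and 31908 genes in the count table. A score above 0 was found for 1924 of the 10464 genes. The differences between gestation days therefore made the list and are given as a description, without a test.

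The 18 libraries hold total RNA of whole brains, each from a different fetus, with 3 females and 3 males for each of GD45, GD60 and GD90. The dams were Landrace × Large White gilts bred to LR-M6 by artificial insemination, and no fetus or dam received a treatment that the labels name. Each day has 3 litter sizes with 1 female and 1 male fetus per size (16, 17 and 8 fetuses at GD45, 13, 15 and 8 at GD60, 10, 11 and 18 at GD90), and the 2 fetuses of a size are taken here as littermates, although the labels do not name the dam. The whole brain pools all regions and cell types, and each brain was sampled at a single age, so no fetus was followed over time.

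Library totals lay between 15118843 and 19729783 counts, with medians of 16901600 at GD45, 16592800 at GD60 and 15890800 at GD90. Male GD45 replicate 17 had the lowest TMM factor (0.849) and the steepest trend of its counts on gene length (slope -0.188, where the other 17 libraries lay between -0.0717 and 0.118). Neuronal markers were well covered: 11 of 11 measured markers of cortical projection neurons and 11 of 12 measured interneuron markers could be chosen by the rule, that is, had a mean of at least 5 CPM. The same held for 11 of 11 measured markers of meninges and fibroblasts and 10 of 10 of endothelium. These shares alone therefore do not single out the brain. Of 11 measured choroid plexus markers 6 reached that level, of 3 skeletal muscle markers 0, and of 2 pituitary markers 1.

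Around mid-gestation the pig brain passes from the production of neurons to their migration, axon growth and first connections. Projection neurons of the cortex are born near the ventricle and move outwards, whereas inhibitory interneurons come from the ventral forebrain and migrate into the cortex. Transcription factors such as CUX2, LHX6 and NPAS1 mark these lineages, DCX coats the microtubules of migrating neurons, and semaphorins and their plexin receptors steer growing axons. FOS and FOSB are immediate early genes, transcribed within minutes of a stimulus through serum response elements that hold a CArG box.

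The upstream sequences of 3 members are shown because FOS and FOSB were the listed immediate early genes among the members and because TRIM67, a neuronal ubiquitin ligase among the 25 highest scores, held the same motif. Each is the 300 bases before the annotated gene start, read 5′ to 3′ on the gene's strand from the Sscrofa11.1 genome, with the CArG box and, where present, TATAAA in capitals. The FOSB sequence lies at chr6:51837419-51837718 on the plus strand, that of FOS at chr7:98449049-98449348 on the plus strand, and that of TRIM67 at chr14:59303297-59303596 on the minus strand.
FOSB: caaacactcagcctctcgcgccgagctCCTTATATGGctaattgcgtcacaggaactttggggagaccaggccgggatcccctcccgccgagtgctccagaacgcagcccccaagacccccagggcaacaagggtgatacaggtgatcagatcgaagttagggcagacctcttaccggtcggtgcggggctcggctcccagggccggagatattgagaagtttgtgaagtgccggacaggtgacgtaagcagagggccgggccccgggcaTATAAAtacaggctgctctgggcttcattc
FOS: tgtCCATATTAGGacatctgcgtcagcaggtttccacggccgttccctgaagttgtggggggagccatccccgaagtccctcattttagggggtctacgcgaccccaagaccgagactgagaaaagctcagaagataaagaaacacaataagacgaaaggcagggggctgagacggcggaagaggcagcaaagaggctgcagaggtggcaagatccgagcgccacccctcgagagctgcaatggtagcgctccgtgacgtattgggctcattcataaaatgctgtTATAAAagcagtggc
TRIM67: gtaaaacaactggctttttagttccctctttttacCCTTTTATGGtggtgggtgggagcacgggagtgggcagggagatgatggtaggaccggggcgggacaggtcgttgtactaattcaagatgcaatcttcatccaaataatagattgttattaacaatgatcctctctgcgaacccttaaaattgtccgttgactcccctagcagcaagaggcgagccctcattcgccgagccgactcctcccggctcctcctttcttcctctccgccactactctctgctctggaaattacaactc

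In the FOSB sequence the CArG box began 273 bases and TATAAA 30 bases before the start, in that of FOS 297 and 15 bases, and in that of TRIM67 the CArG box began 265 bases before it. Searched on both strands, a CArG box was present in 5 of 100 members (FOSB, FOS, TRIM67, DOCK6 and TKTL2), or 5.0%, and in 145 of the 10327 choosable genes with a sequence, or 1.40%. FOS and FOSB are the genes for which this motif was described above, so their hits are not independent of its choice. Nothing is read from the difference in shares. The AP-1 motif TGANTCA, the site that FOS proteins bind with JUN proteins, was present in 8 members (8.0%, against 4.48%), among them LHX6 and DOK5. TATAAA stood in 10.0% of the members and 7.27% of all genes, the cyclic AMP element TGACGTCA in 2.0% and 2.80%, the E-box CAGCTG in 12% and 14.5%, and the homeodomain core TAATTA in 2.0% and 3.20%. These are matches of letters within 300 bases, and they rest on the annotated gene start: of the 100 members, 93 had a gene of the same symbol in RefSeq, and 36 of these started within 100 bases of it. TRIM67 was among the 36, whereas FOS and FOSB were not, so their distances hold for the start used here only. The GC content of the sequences had a median of 64.8% in the members and 62.0% in all genes.

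**Figure D1:**
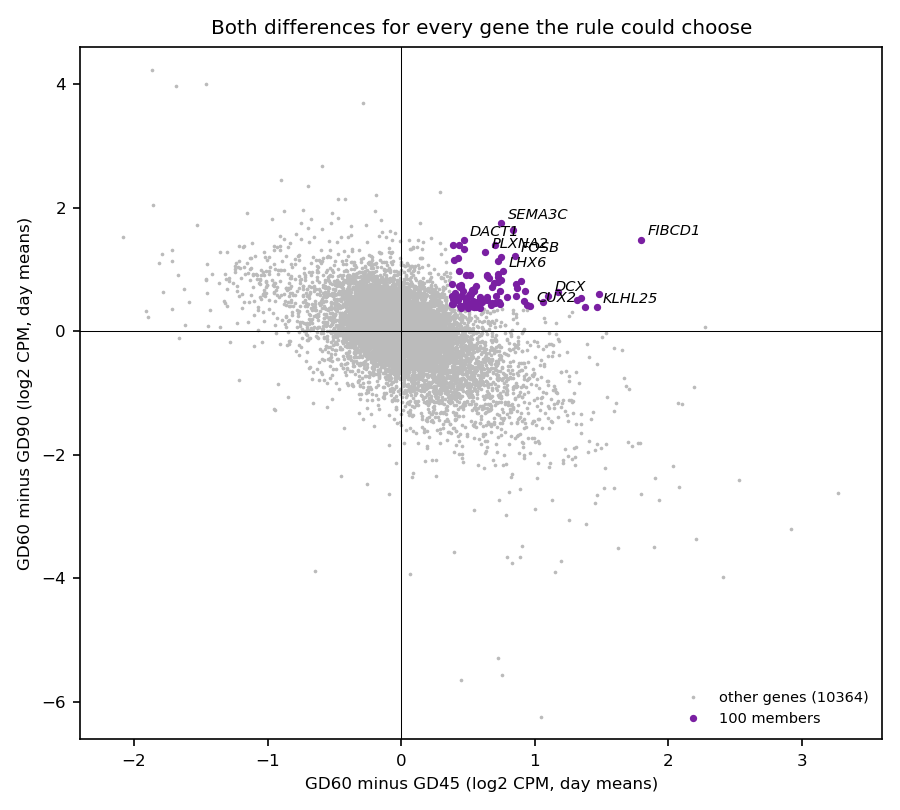
Difference in mean log2 CPM between GD60 and GD45 (horizontal) and between GD60 and GD90 (vertical) for each of the 10464 genes the rule could choose, with the 100 members in purple and 9 of them named. The members fill the upper right corner by construction, from 0.378 upwards on the horizontal and 0.377 upwards on the vertical axis, and FIBCD1 lies apart at 1.80 and 1.48.

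The members' differences were modest and their sides unequal. On the log2 CPM scale, GD60 exceeded GD45 by 0.378 to 1.80 (median 0.558) and GD90 by 0.377 to 1.74 (median 0.576). GD90 lay above GD45 in 47 members and below it in 53, from -1.001 in DACT1, a regulator of Wnt signalling, to 1.07 in KLHL25, a substrate adaptor of a ubiquitin ligase. The scores had a median of 0.479, and the list ended in a dense part of the ranking: the last gene inside it was PHIP with a score of 0.377, and the first outside was VAV2 with 0.376. Mean levels spanned 5.10 to 1596 CPM (median 31.8, against 37.9 for all choosable genes), the highest being FASN, the fatty acid synthase, with a mean of 1966 CPM at GD60.

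A stricter view asks whether every GD60 library stood above each of the 12 others. This held for 19 of the 100 members, where 0.184% of the 16325 tested genes (30 genes) had this order, and since the day means chose the members nothing is read from the comparison. The 19 were FIBCD1, LHX6, DNAH1, FAM124A, BCL6, STK32B, DOK5, SLC26A1, TRIM67, VWCE, NUDT16L1, PDZRN3, CACNG4, ANKS6, ZNF672, MCF2L, FBXO39, CUX2 and SEPTIN6. A further 38 members had 5 of their 6 highest libraries at GD60, 24 had 4, 12 had 3 and 7 had 2. The highest library of all was a GD60 library in 92 members, most often female GD60 replicate 3 (34 members) or male GD60 replicate 16 (23). The lowest library was at GD45 in 47 members, of which 30 fell to male GD45 replicate 17, and at GD90 in 52, of which 36 fell to female GD90 replicate 2.

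**Figure D2:**
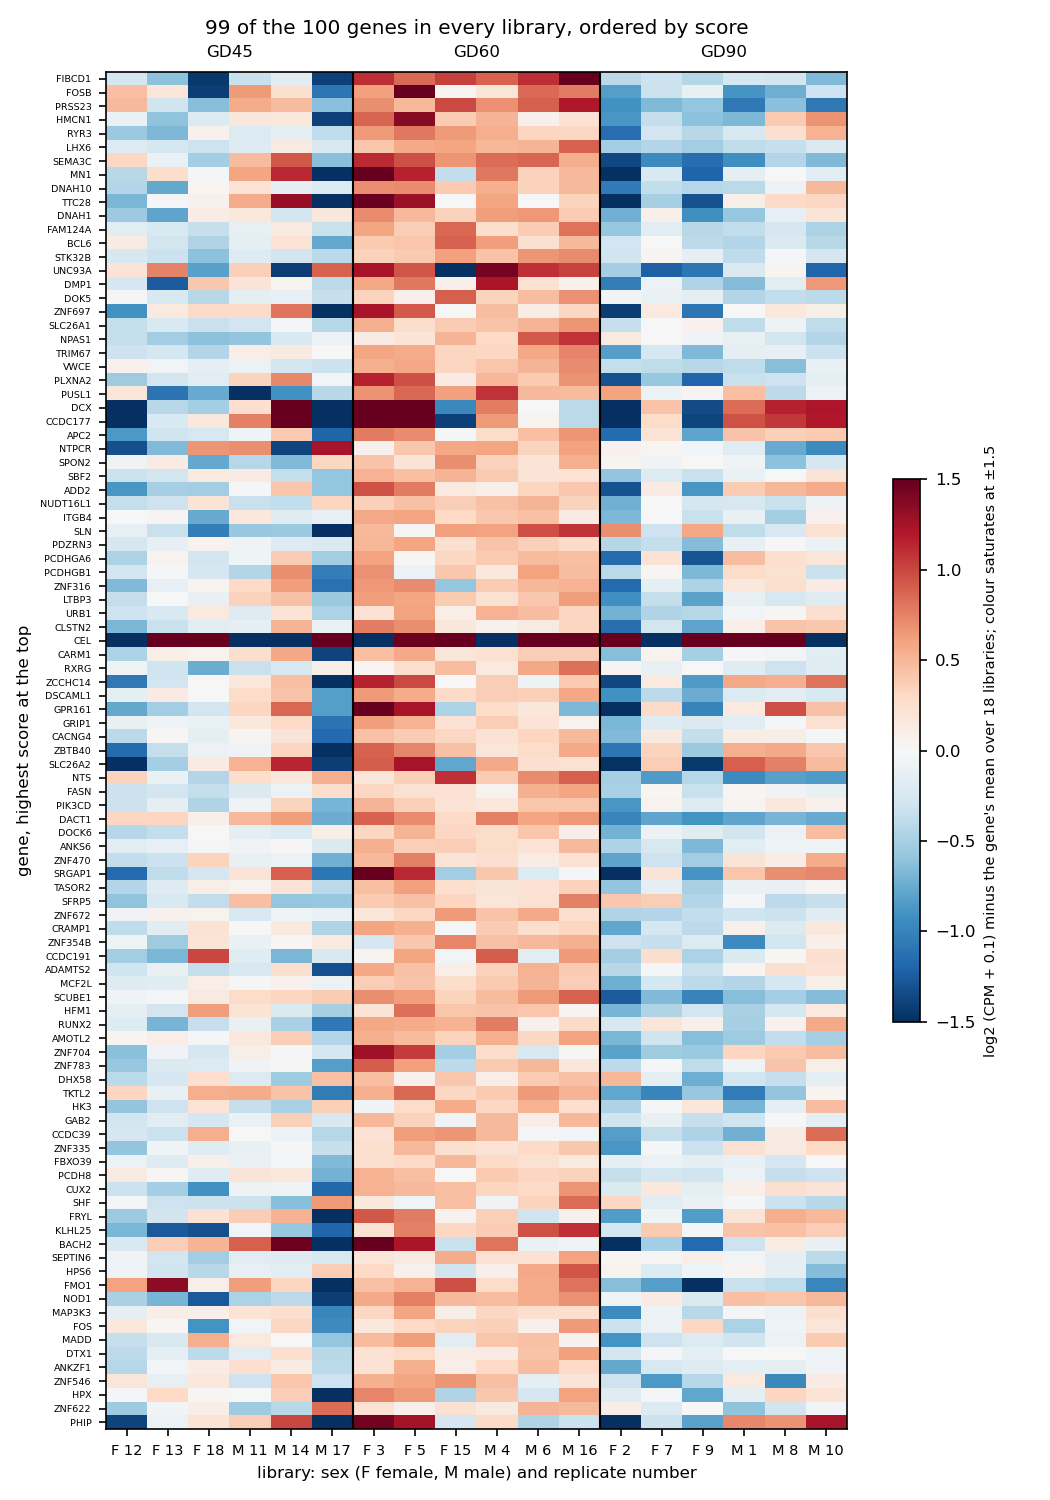
Log2 CPM of 99 of the 100 genes (rows, highest score at the top) in the 18 libraries (columns, by day, sex and replicate) as the difference from each gene's own mean, red above and blue below it. The 6 GD60 columns are red in most rows, while within GD45 male replicate 17 and within GD90 female replicate 2 are the bluest columns.

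FIBCD1, a membrane receptor that binds acetylated sugars, had the highest score (1.48). It is ENSSSCG00000005707 on the minus strand of chr1:270918249-270956350. It had a median of 79.5 CPM (40.2 to 97.9) at GD45, of 230 CPM (199 to 330) at GD60 and of 86.1 CPM (69.7 to 91.3) at GD90. The lowest GD60 library stood far above the highest of the other days, and the means were 71.7 ± 25.4, 238 ± 47.9 and 84.3 ± 8.14 CPM (SD, n = 6 each). The GD60 mean on the log2 scale was 3.48-fold that of GD45 and 2.79-fold that of GD90. All 8 of its exons with at least 180 counts also had their highest mean at GD60.

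Among the transcription factors of neuronal lineages, LHX6 was the most even. This LIM homeobox factor of interneurons from the medial ganglionic eminence measured 60.9 to 83.2 CPM at GD45 (median 65.1 CPM), 101.5 to 140 CPM at GD60 (median 110 CPM) and 52.9 to 65.2 CPM at GD90 (median 57.2 CPM). All 6 GD60 libraries exceeded the other 12, and the GD60 level was 1.69-fold that of GD45 and 1.97-fold that of GD90. NPAS1, a bHLH-PAS repressor also found in interneurons, ranged over 16.6 to 23.9, 27.7 to 54.2 and 18.7 to 27.9 CPM at the 3 days. Its lowest GD60 library (27.7 CPM) fell just under its highest GD90 library (27.9 CPM). Of 12 measured interneuron markers, 2 (LHX6 and RELN) had their highest mean at GD60, or 16.7%, against 18.9% of all tested genes. The list's median differences were 0.14 against GD45 and -0.38 against GD90. SST, GAD1 and CALB2 had their highest means at GD90, 0.36, 0.71 and 1.36 log2 units above GD60. GAD2, NPY, PVALB and VIP were highest at GD90 as well. In contrast, DLX1, DLX2 and DLX5 were highest at GD45, and their GD60 means exceeded GD90 by 1.48, 1.62 and 1.61 log2 units.

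CUX2, a homeobox factor of upper-layer cortical projection neurons, differed more between GD45 and GD60 than between GD60 and GD90. It measured 66.1 to 145 CPM at GD45, 183 to 238 at GD60 and 129 to 177 at GD90, with every GD60 library above all others. Its GD60 level was 1.95-fold that of GD45 and 1.32-fold that of GD90. Of the 11 measured projection neuron markers 3, CUX2 and TLE4 among them, had their highest mean at GD60, against 18.9% of all tested genes (3088), and the list's median differences were 0.11 and 0.44. NEUROD2, NEUROD6 and FEZF2 were highest at GD45, with GD60 0.17, 0.15 and 1.11 log2 units lower. BCL11B and FOXP2 were highest at GD45 as well. SLC17A7, RORB and CUX1 were instead highest at GD90, with GD60 minus GD90 at -2.05, -0.66 and -0.22 log2 units.

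DCX was the least even of the lineage genes. Doublecortin stabilises microtubules in newborn, migrating neurons, and its level ran from 14.2 to 220 CPM at GD45, with a median of 55.5, from 38.9 to 349 CPM at GD60, with 103, and from 14.4 to 177 CPM at GD90, with 120. Its score was 0.577 over all libraries, 1.87 in the females alone and -0.95 in the males alone. None of the other 8 measured genes of intermediate progenitors and newborn neurons was highest at GD60, and EOMES, NEUROG2 and NEUROD4 stood 1.69, 1.46 and 1.86 log2 units lower at GD60 than at GD45. In the exon table, whose totals were 45.3% to 51.5% of the gene counts, DCX had a score of 0.205.

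**Figure D3:**
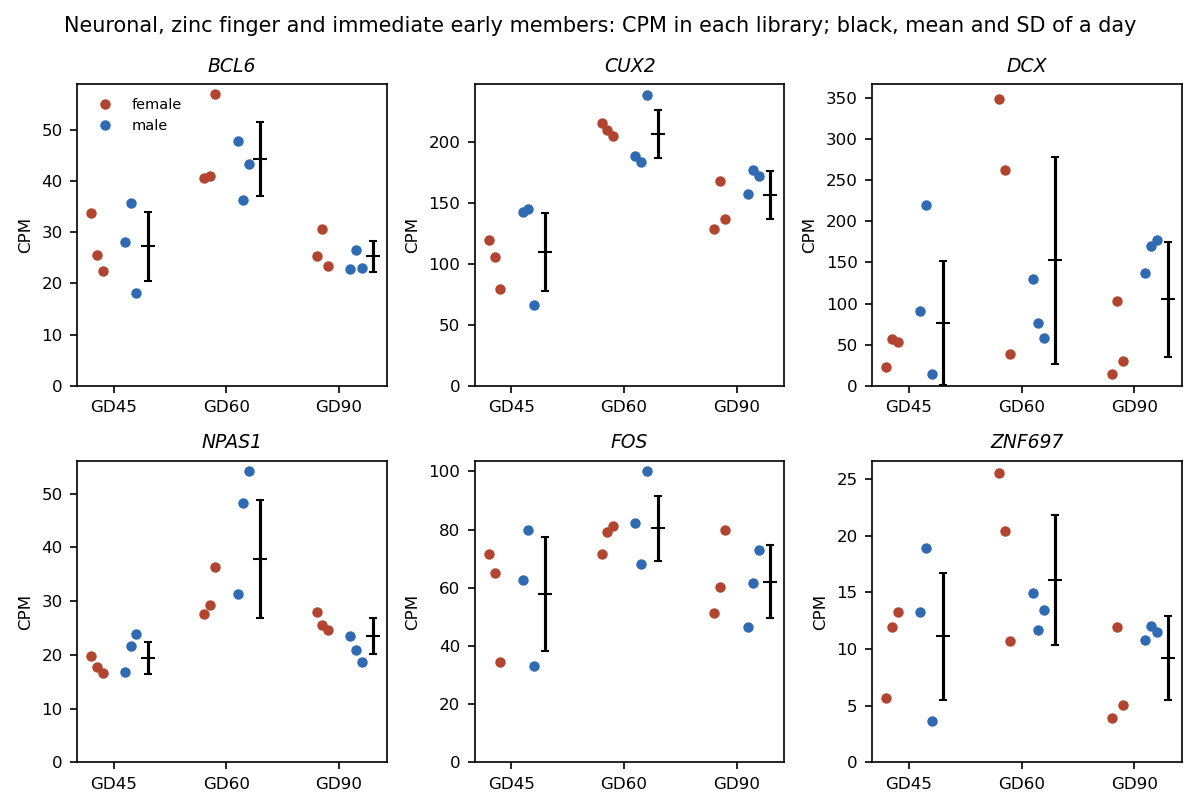
CPM (vertical, from 0) in each library at the 3 days for BCL6, CUX2, DCX, NPAS1, FOS and ZNF697, females in red and males in blue, with the mean and SD of the 6 libraries of a day in black. BCL6 and CUX2 have every GD60 library above both other days, and DCX spans 38.9 to 349 CPM within GD60.

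Of the other developmental regulators among the 25 highest scores, BCL6, a repressor of transcription that acts in cortical neurogenesis, had every GD60 library above all others. It measured 18.0 to 35.7 CPM at GD45, 36.3 to 56.8 at GD60 and 22.7 to 30.7 at GD90, although its GD45 maximum came within 1 CPM of the GD60 minimum. MN1, a transcriptional coregulator, had a median of 85.4 CPM (17.8 to 171) at GD45, of 122 CPM (60.6 to 221) at GD60 and of 67.8 CPM (26.4 to 78.2) at GD90. Its neighbour TTC28, a protein of many tetratricopeptide repeats, reached 9.02 to 83.2, 33.5 to 93.7 and 8.51 to 41.6 CPM. Both overlapped between days. They lie 180018 bases apart on the minus strand of chromosome 14, and their deviations from the means of sex and day had a correlation of 0.985 over the 18 libraries and of 0.959 without male GD45 replicate 17. BACH2, a member on chromosome 1, correlated at 0.985 with TTC28 and 0.983 with MN1, so such values were not limited to neighbours.

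Ligands and receptors of axon guidance followed. SEMA3C, a secreted semaphorin, measured 15.0 to 44.6 CPM at GD45 (median 25.3 CPM), 33.9 to 50.6 CPM at GD60 (median 42.1 CPM) and 8.99 to 17.2 CPM at GD90 (median 12.1 CPM). GD60 lay above all of GD90, and 1 GD45 library (44.6 CPM) reached into its range. PLXNA2, a plexin receptor for class 3 semaphorins, measured 185 to 444 CPM at GD45, 293 to 598 at GD60 and 109 to 243 at GD90. For both genes the difference from GD90 was the larger, 3.35-fold for SEMA3C and 2.43-fold for PLXNA2, against 1.68-fold and 1.55-fold from GD45. SRGAP1, a GTPase activator in Slit and Robo signalling, and the adhesion molecules DSCAML1 and PCDH8 were also members.

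The 2 immediate early members differed in level. Per length, FOS averaged 16.4 FPKM at GD60 and FOSB 2.34 FPKM, computed from the counts and the gene length. FOSB measured 1.84 to 7.96 CPM with a median of 5.90 at GD45, 5.17 to 16.6 CPM with a median of 8.28 at GD60 and 2.70 to 4.70 CPM with a median of 3.53 at GD90. GD60 stood wholly above GD90 and overlapped GD45, and the highest value was that of female GD60 replicate 5. FOS measured 33.3 to 79.8 CPM at GD45, 68.1 to 100.3 at GD60 and 46.5 to 79.8 at GD90. Both FOS and FOSB were low in the GD45 litter of 8, where FOS averaged 34.0 CPM against 67.1 and 72.5 in the other GD45 litters. Of the 15 measured immediate early genes 5 had their highest mean log2 CPM at GD60 (FOSB, FOS, NR4A2, FOSL2 and ATF3). This was 33.3%, against 18.9% of all tested genes. NR4A2, FOSL2 and ATF3 exceeded GD90 by only 0.13, 0.11 and 0.006 log2 units. ATF3 averaged 2.28 CPM at GD60 and 2.36 CPM at GD90. The list's median difference was 0.53 against GD45 and -0.10 against GD90, and ARC, an immediate early gene of synaptic activity, stood 1.13 log2 units lower at GD60 than at GD90.

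Structural and motor proteins supplied 3 of the 12 highest scores. HMCN1, the large extracellular matrix protein hemicentin, had a median of 10.1 CPM (4.20 to 12.7) at GD45, of 15.4 CPM (11.9 to 29.1) at GD60 and of 8.05 CPM (6.11 to 18.0) at GD90, so the days overlapped. DNAH10 and DNAH1, heavy chains of the dyneins that move cilia, measured 57.8 to 74.1 and 6.48 to 8.38 CPM at GD60. DNAH1 stood at 2.89 to 5.75 CPM at GD45 and 2.65 to 5.84 at GD90, wholly below GD60, while DNAH10 stood at 26.6 to 52.3 and 21.7 to 63.7 and overlapped GD90. Of 8 measured axonemal dynein heavy chains only these 2 (25%) were highest at GD60, against 18.9% of all tested genes. Of 8 measured markers of ependymal cells and motile cilia 3 (37.5%) were, with list medians of 0.05 and -0.08.

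RYR3, the ryanodine receptor channel that releases stored calcium, measured 24.7 to 41.3 CPM at GD45 (median 32.4 CPM), 49.0 to 68.5 CPM at GD60 (median 59.6 CPM) and 17.9 to 56.8 CPM at GD90 (median 32.9 CPM). Only male GD90 replicate 10 (56.8 CPM) reached into the range of GD60. PRSS23, a secreted serine protease, measured 14.2 to 32.7, 31.1 to 51.0 and 10.5 to 14.8 CPM. Its GD60 level was 3.12-fold that of GD90 and 1.78-fold that of GD45. FAM124A, a gene with no role stated here, measured 62.8 to 87.6, 95.6 to 145 and 53.7 to 71.2 CPM, with GD60 above both other days.

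**Figure D4:**
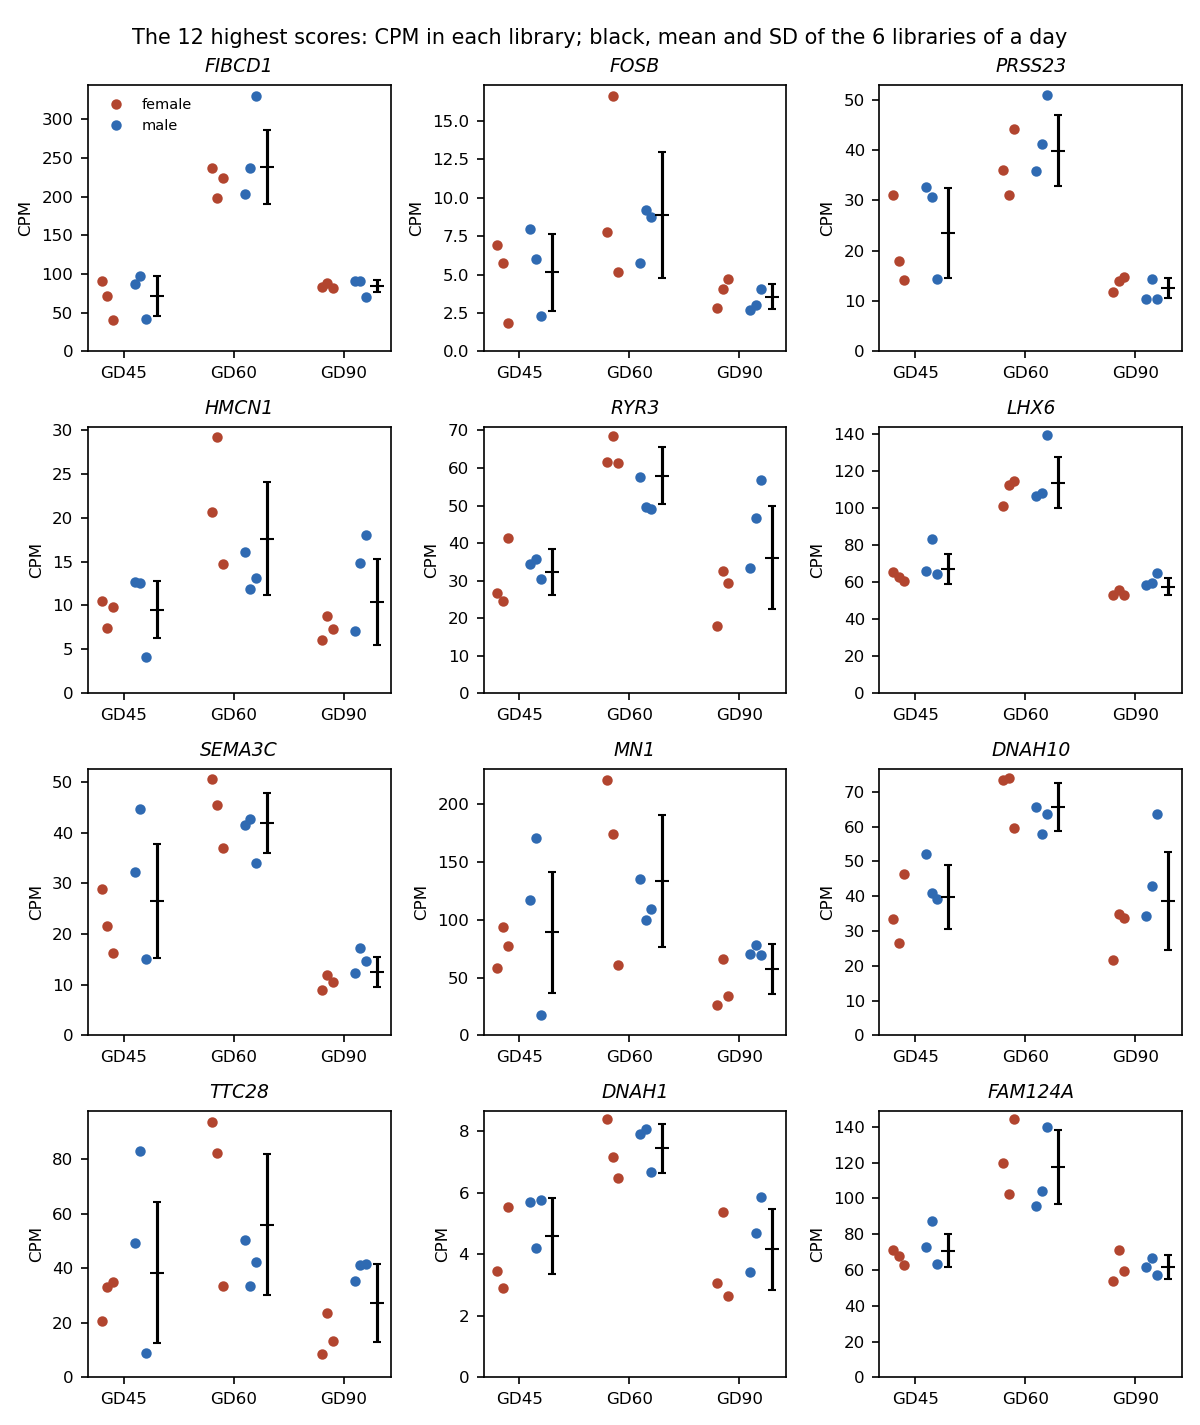
CPM (vertical, from 0) in each library at the 3 days for the 12 genes with the highest scores, females in red and males in blue, with the mean and SD of the 6 libraries of a day in black. FIBCD1, LHX6, DNAH1 and FAM124A keep all 6 GD60 libraries above the other 12, and MN1 and TTC28 have libraries of every day in a shared range.

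The remaining genes of the top 25 had mixed roles. STK32B, a serine and threonine kinase, averaged 71.4 ± 7.66 CPM at GD60 (SD, n = 6), against 39.0 ± 3.89 at GD45 and 43.8 ± 4.95 at GD90. DOK5, a docking protein of receptor tyrosine kinases, averaged 184 ± 38.3 CPM, against 114 ± 11.7 and 111 ± 13.0. TRIM67 averaged 323 ± 36.8 CPM, against 208 ± 34.3 and 174 ± 32.98. These 3 genes had every GD60 library above all others.

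The sulfate carrier SLC26A1 (20.4 ± 1.95 CPM at GD60, 12.2 ± 1.26 at GD45 and 13.0 ± 1.86 at GD90) and VWCE, a secreted von Willebrand factor domain protein (20.2 ± 1.83, 12.9 ± 1.29 and 10.8 ± 1.28 CPM), also had every GD60 library on top. SLC26A2, a second sulfate carrier, was also a member. Of 9 measured SLC26A genes 3 (33.3%) were highest at GD60, against 18.9% of all tested genes. PUSL1, a pseudouridine synthase-like protein, averaged 8.21 ± 3.78, 21.5 ± 3.68 and 14.3 ± 3.85 CPM. ZNF697, UNC93A and DMP1 overlapped between days, and UNC93A had its lowest value of the 18 libraries (1.46 CPM) in a GD60 library.

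By symbol, the largest family was the zinc finger (ZNF) genes with 10 members, ZNF697 among them. Of the 237 ZNF genes tested, 87 (36.7%) had their highest mean at GD60, against 18.9% of all genes. Their median differences were -0.0023 against GD45 and 0.40 against GD90, so the median ZNF gene was level between GD45 and GD60 and lower at GD90. ZNF672 was the most even of the 10, with 40.03 to 85.2 CPM over the 18 libraries. The protocadherins PCDHGA6 and PCDHGB1, adhesion proteins of neurons encoded 22149 bases apart on chromosome 2, ranged over 3.11 to 11.8 and 3.11 to 10.6 CPM, and all 4 measured PCDHG genes were highest at GD60. Genes of this cluster share exons, and the treatment of shared reads is not given in the sources used here, so their separate counts are uncertain.

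Members also lay near each other in 3 further pairs within 500000 bases, namely SLC26A1 with SPON2, CARM1 with DOCK6 and ZNF354B with ADAMTS2. Their deviations correlated at -0.32, -0.06 and -0.25, unlike MN1 with TTC28 and the protocadherin pair (0.75). High correlations also joined members of different chromosomes, such as TTC28 with BACH2 (0.985). The members were spread over 19 chromosomes, with 14 of the 942 choosable genes of chromosome 2 as the highest count. In the exon table, 525 of the 570 exons of members with at least 180 counts had their highest mean at GD60 (92.1%, against 21.8% of the exons of all choosable genes), and so had 66 of the 69 such transcripts (95.7%) in the table of transcripts. These tables count the same reads and add no replicate.

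The spread between fetuses of the same sex and day is not a term of the score, but it comes from the same libraries, and a cut on extreme means can favour genes that spread widely, so it is given as a description. The SD of log2 CPM within sex and day had a median of 0.357 in the members, 0.222 in all choosable genes and 0.275 in all tested genes. The 90th percentile of the choosable genes was 0.406, and 38 of the 100 members exceeded it. For the 19 with every GD60 library on top, an order that itself requires a small spread, the median was 0.175. The widest was CEL, the bile salt-dependent lipase of the pancreas, which had 0 counts in 3 libraries at GD45, in 1 at GD60 and in 2 at GD90, and highest values of 27.7, 34.8 and 10.6 CPM at these days. A library at 0 allows up to 3 counts. Then came CCDC177 (0.360 to 15.0 CPM), DCX (24.5-fold between its lowest and highest library) and the transcriptional repressor BACH2 (14.6-fold). At the other end, PDZRN3, a ubiquitin ligase, and LHX6 varied 2.38-fold and 2.64-fold over all 18 libraries, the change between days included.

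Members varied together to a modest degree, and not all of them did. The mean correlation between 2 members, over the 18 libraries' deviations from the mean of their sex and day, was 0.214, against 0.0853 among the 100 genes with the deepest dip at GD60 and 0.00320 among all choosable genes. Of the 4950 pairs of members 423 had a correlation above 0.8. DCX correlated at 0.985 with SRGAP1, whereas LHX6 correlated at 0.42 with NPAS1 and FOSB at 0.73 with FOS. CEL, NTPCR and UNC93A, among the widest, had mean correlations of -0.285, -0.222 and -0.136 with the other members. Without male GD45 replicate 17 the mean over members was 0.160, against 0.118 among the genes dipping at GD60 and 0.0054 among all choosable genes, the number of pairs was 271, and DCX with SRGAP1 came to 0.987. These correlations are a description over points that share libraries and depth.

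The trend of a library's counts on gene length moved with part of this variation. The deviation of that trend had a correlation above 0.5 with 57 of the 100 members, against 33.1% of all choosable genes, and reached 0.967 for BACH2, 0.961 for TTC28, 0.928 for MN1 and 0.892 for DCX. For LHX6 it was 0.276, for STK32B 0.0701 and for VWCE 0.118. With each library's trend removed, 91 of the 100 genes were still chosen, and the mean correlation was 0.152 among members, 0.0941 among the genes dipping at GD60 and 0.0115 among all choosable genes. With male GD45 replicate 17 left out as well, it was 0.132 among members and 0.126 among the dipping genes, so the difference between the sets was then small. The day means of the slope were -0.0411 at GD45, 0.000534 at GD60 and 0.0406 at GD90, and the medians -0.0238, 0.0064 and 0.0537. Whether the trend contributed to the levels at GD60 was not tested.

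The score of each sex describes how the peak was shared between females and males. The rule used day means over these same females and males, so scores above 0 in each sex follow in part from the choice. Choosing anew from each sex alone kept 13 members in both. In females alone it was above 0 in 99 members with a median of 0.542, and in males alone in 87 with a median of 0.366. Both were above 0 in 86 members. The lowest in males were PHIP (-1.04), a protein that binds chromatin and insulin receptor substrate, CCDC177 (-0.98) and DCX (-0.95), for which the mean of the male GD45 or GD90 libraries lay above that of the male GD60 libraries. FIBCD1 scored 1.37 in females and 1.59 in males, LHX6 0.79 and 0.73, BCL6 0.76 and 0.68.

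Sex was not used by the rule and was tested in edgeR's quasi-likelihood model of all 16325 genes, with Benjamini-Hochberg adjustment and a threshold of 0.05. No member was called between males and females, where the background was 0.0919% of genes at GD45, 0.098% at GD60, 0.098% at GD90 and 0.116% for the mean of the days. At an unadjusted p under 0.05 there were 3 members at GD45 (2.59% of all genes), 3 at GD60 (4.8%), 28 at GD90 (13.6%) and 9 for the mean (3.41%). DESeq2 called 1 member at GD90 (0.319% of genes with an adjusted p) and 0 in the other 3 comparisons (0.11% to 0.178%). Without female GD90 replicate 7, edgeR called 3 members at GD90, where 0.168% of all genes were called.

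The direction at GD90 was uneven. Males were higher in 77 of the 100 members, with a median log2 difference of 0.36, against 51.0% and 0.01 over all tested genes. All 3 males exceeded all 3 females in 37 members and in 17.8% of all genes. The trend on gene length also separated the sexes at this day, with slopes of -0.0669 to 0.0306 in the females and 0.0768 to 0.118 in the males. With the trend removed, 68 members were higher in males (median 0.23, against 45.7% and -0.03 over all genes), and all males exceeded all females in 29 (12.4% of all genes). At GD60, 43 members were higher in males with a median of -0.04 (49.9% of all genes). At GD45, 63 were, with a median of 0.08 (50.6% of all genes), and by the fold changes of the edgeR model 76 were, with a median of 0.14.

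CLSTN2, a synaptic calsyntenin named here after its values were seen, had the smallest adjusted p at GD90. Its 3 female libraries measured 14.6, 26.7 and 18.7 CPM and its 3 male libraries 34.5, 43.4 and 42.8 CPM. The log2 difference was 1.01 ± 0.23 (SE), and the adjusted p of edgeR's test was 0.258. At GD60 the order was the reverse in the means, with 55.1, 52.3 and 36.2 CPM in females and 33.6, 35.5 and 40.5 CPM in males (log2 difference -0.39 ± 0.23, adjusted p = 0.779 by the same edgeR test). The interaction of sex and day between GD60 and GD90 was -1.40 ± 0.32 with an adjusted p of 0.175. Over all members, that interaction called 0 (background 0%) with 23 at an unadjusted p under 0.05 (19.8% of all genes), and the interaction between GD45 and GD60 called 0 (background 0%) with 7 (2.04%). DESeq2 called 4 members for the interaction of GD60 and GD90 (1.82% of genes with an adjusted p) and 0 for that of GD45 and GD60 (0%). Without male GD45 replicate 17, edgeR called 15 members for the interaction of GD60 and GD90, where 13.3% of all genes were called.

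**Figure D5:**
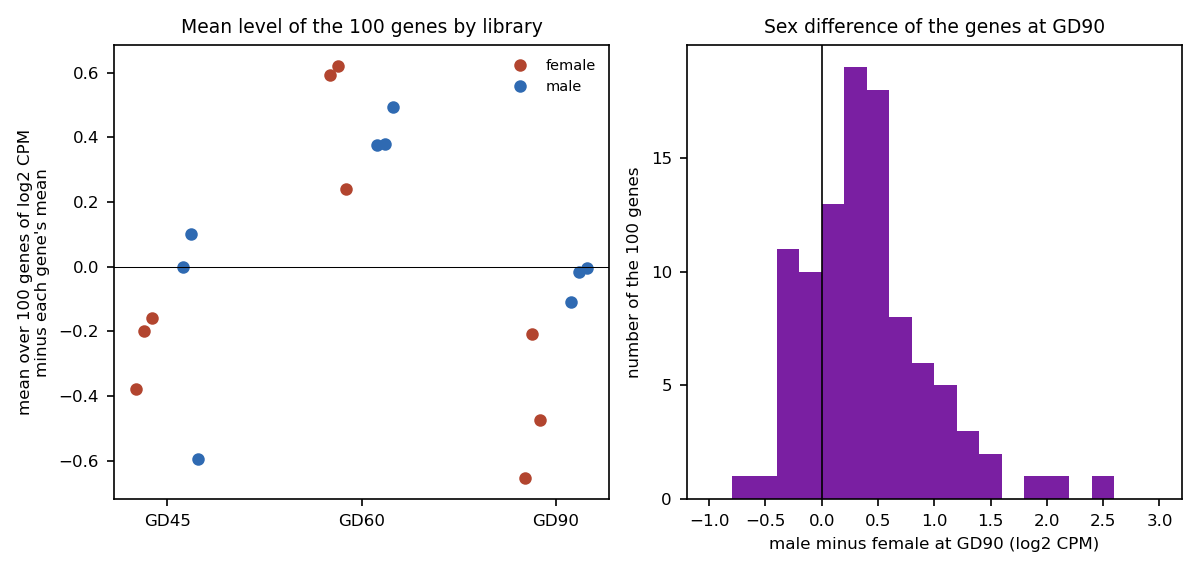
Left, the mean over the 100 genes of log2 CPM minus each gene's mean (vertical) for each library by day, females in red and males in blue. Right, the number of the 100 genes (vertical) by their male minus female difference in log2 CPM at GD90 (horizontal, bins of 0.2). All 6 GD60 libraries lie between 0.24 and 0.62, above the others, and 77 of the 100 genes lie to the right of 0 at GD90.

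Averaged over the 100 genes, each GD60 library stood 0.24 to 0.62 log2 units above the genes' means, the GD45 libraries -0.60 to 0.10 and the GD90 libraries -0.66 to -0.0041. The lowest were female GD90 replicate 2 and male GD45 replicate 17. Whether more cells of a type or more RNA per cell stood behind a level cannot be told apart in whole tissue.

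Litters within a day were compared in a separate edgeR model of litters and of sex within each day, with 2 fetuses for each of 3 litters. No member was called at GD45 (background 0.0306%), at GD60 (0.0306%) or at GD90 (0%). At an unadjusted p under 0.05 there were 22 members at GD45 (10% of all genes), 7 at GD60 (6.79%) and 8 at GD90 (2.7%). DESeq2 called 10 members at GD45 (0.775% of genes with an adjusted p), 0 at GD60 (0.214%) and 0 at GD90 (0.251%). Without female GD45 replicate 18, which leaves a single fetus of the litter of 8, edgeR called 47 members at GD45 (32.5% of all genes) and 5 at GD60 (3.49%). FOS had the smallest adjusted p at GD45 (0.169 in edgeR's test). The GD45 litter of 8, whose brains the labels give as the lightest of that day, held the lowest mean of 62 of the 100 members and of 45.4% of all genes the rule could choose. Since the rule used the GD45 levels, this is a description. Its mean level over the members was 4.45 log2 CPM against 4.63 and 4.77 in the others. FIBCD1 averaged 40.8 CPM in that litter and 89.4 and 84.8 CPM in the other 2 of GD45. At GD60 the litters' mean levels were 5.31, 5.32 and 5.19, at GD90 4.44, 4.71 and 4.58. The GD60 litter of 8 held the lowest mean of 52 members and of 34.9% of all genes the rule could choose. For the GD90 litter of 10 these were 68 members and 37.6%, likewise a description.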

How the data were processed

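The 100 genes and all gene lists were chosen with earlier results of these data known. The authors trimmed reads with Trimmomatic, aligned them to Sscrofa 11.1 with HISAT2 and deposited raw read counts per gene, exon and transcript from featureCounts, without normalization. Strand and multi-mapping settings are not given in the sources used here, so overlapping genes are uncertain. Repeat runs of 4 libraries were summed, and every column belonged to a library. Genes passing filterByExpr were scaled by TMM in edgeR 4.0.16 (R 4.3.3, limma 3.58.1, data.table version 1.17.8). One model of 6 groups of sex and day gave the tests of sex and of the interaction, and a model of litters within days the tests of litters. DESeq2 1.42.0 was an alternative. On simulated counts for 16325 genes, 95.5% of 200 genes changed by a log2 fold of 2 were recovered for sex at GD60, with 8 false calls, and 95.0% for litters at GD60, with 10. Smaller changes, such as the members' median sex difference of 0.36 at GD90, were not simulated. The recovery therefore does not cover them. Counting limits, such as 3 counts for a library at 0, cover counting error only, since reads are not independent molecules. The genes named are the 25 highest scores, members of fixed lists, neighbours within 500000 bases, families by symbol and the genes beside the last rank, and others were named after their values were seen. Littermates did not pair consistently: over all genes, their deviations correlated at -0.093 to 0.42. The values of 1 member are not reported here.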

Additional observations from a re-analysis of the deposited data

Results flagged for a closer look

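In the 39 sets of 6 libraries of 1 day that were looked at for the highest scores, 2 held a library far from the others by Dixon's criterion, and chance alone flags about 1 set in 20. FIBCD1 in male GD60 replicate 16 measured 330 CPM where the other 5 GD60 libraries measured 199 to 237 CPM. LHX6 in male GD45 replicate 14 measured 83.2 CPM where the other 5 GD45 libraries measured 60.9 to 66.1 CPM. Without these libraries the score of FIBCD1 was 1.39 and that of LHX6 0.82.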

How the results depend on the processing

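Choosing the 100 genes anew kept 97 of them without TMM factors, 98 with factors from all genes, 100 with a prior count of 0.5, 91 with the length trend removed and 73 with a minimum of 1 CPM. It kept 59 with a minimum of 20 CPM, 65 with medians, 63 from summed exon counts, 34 from females only and 52 from males only, and 73 without the GD45 litter of 8, a choice made after seeing the data, as were the other settings for co-variation and for the sex difference with the length trend removed. With 1 library left out it kept 78 (without male GD45 replicate 17) to 94, and 44 genes were kept each time, 23 of them among the 25 highest scores. The number with all GD60 libraries on top was 19 to 24. Of 725 scores of the top 25 genes under other settings, 0 turned negative, 719 moved by less than the replicate SD and 6 by more, and the lowest was 0.074 for TTC28 in males only. These genes were the extreme scores of largely the same libraries, so scores above 0 follow in part from the choice. The number of members called was 0 in each test and 0 with the litter as a replicate block, which gives 0 calls for sex at each day and for both interactions. DESeq2 called 1 for sex at GD90 (0.319% of genes with an adjusted p), 4 for the interaction of GD60 and GD90 (1.82%) and 10 for litters at GD45 (0.775%). Leaving the low counts unfiltered gave 5 for litters at GD45 (0.223% of all genes). With 1 library left out, the range was 0 to 1 for sex at GD60, 0 to 3 for sex at GD90 (without female GD90 replicate 7), 0 to 15 for the interaction of GD60 and GD90 (without male GD45 replicate 17), 0 to 47 for litters at GD45 and 0 to 5 for litters at GD60 (both without female GD45 replicate 18, where the lone littermate is assumed to vary like the others), and 0 elsewhere. The cause of these differences was not tested. Litters come from equal litter sizes in the labels, and 3 fetuses per sex and day limit what a test can call.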
